A study of Mus musculus with 2 samples.

Results

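The genes described here are 10 enzymes that put acyl groups on histone lysines or take them off: the writers Ep300, Crebbp, Kat2a, Kat2b, Kat5 and Kat7, and the erasers Hdac1, Hdac2, Hdac3 and Sirt3. They were chosen by name, as acetyl- and lactyl-transferases and deacylases, and all 10 were present among the 32285 features of both matrices. Their unique molecular identifiers (UMIs, counts of captured transcripts) were summed per library over barcodes that passed 1 of 4 gates, each set by the UMIs of a few defining genes.

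Acetylation of histone tails loosens chromatin and is read by bromodomain proteins, and the level of the mark is set by the balance of writers and erasers. Ep300 and Crebbp encode the large paralogous coactivators p300 and CBP, which sit at enhancers and have been reported to transfer lactyl and other acyl groups as well as acetyl. The class I deacetylases act as catalytic subunits of corepressor complexes, and some of them have been reported to remove lactyl groups. Sirt3 is an NAD-dependent deacylase best known in mitochondria.

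The study compared mouse hepatocellular carcinoma in which the splicing factor gene Srsf10 was targeted by a short hairpin RNA (shSrsf10) with tumours of the control (shCtrl, whose genotype label is WT), and asked how targeting the factor affects tumour immunity. Each group was 1 droplet single-cell library of tumour tissue. The labels used here do not give the number of mice pooled, their strain, age or sex, nor which cells carried the hairpin. They also conflict on the preparation: the series design names a 10x 5′ kit, digested tumours and a flow sort with no stated gate, whereas the sample protocol names the 10x 3′ V3 kit and a liver suspension spun slowly. Since a group was a single library, spread between replicates is unknown and the groups were not tested against each other. Every interval below is at 95% and covers counting error only.

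The files held 7553 barcodes in shSrsf10 and 9920 in shCtrl, with 136419902 and 143327661 UMIs, and 7030 and 8767 barcodes were kept. The libraries shared 67 barcode sequences, and leaving these out is among the alternatives. The tumour gate (at least 5 UMIs of Krt8 and Krt18 and none of Ptprc, the leukocyte antigen) took 3737 barcodes in shSrsf10 and 6324 in shCtrl, with 111226054 and 123184379 UMIs. The T gate (at least 2 UMIs of Cd3d, Cd3e and Cd3g) took 1908 and 343 barcodes, with 8667725 and 1294303 UMIs. The macrophage gate (at least 3 UMIs of C1qa, C1qb and C1qc) took 160 and 416 barcodes, with 1269467 and 1703174 UMIs. The neutrophil gate (S100a8 and S100a9 at 1% of UMIs or more) took 286 and 147 barcodes with 276486 and 137997 UMIs, the fewest of any gate. In the tumour gate the median barcode held 26169 UMIs in shSrsf10 and 17315.5 in shCtrl. Every gate held all of its own cell type's further markers in both libraries, such as the 12 listed for T cells. Detection in a gate's sum does not tell the gates apart. The tumour gate also held all 12 T-cell and all 10 neutrophil markers in both libraries. Srsf10, the hairpin's target, was at 19.5 CPM (the gene's UMIs per 1000000 UMIs of the gate) in shSrsf10 tumour-gate barcodes and at 45.8 CPM in shCtrl ones, a log2 ratio of -1.23 (-1.30 to -1.16). Its log2 ratio was -0.60 (-0.92 to -0.27) in the T gate and -0.79 (-1.40 to -0.20) in the macrophage gate. Without barcodes that pass another gate these were -0.44 (-0.79 to -0.08) and 0.05 (-0.86 to 0.90).

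In tumour-gate barcodes the coactivator pair Ep300 and Crebbp was lower in shSrsf10 than in shCtrl. Ep300 (chr15:81585351-81652077, plus strand) was at 4.47 CPM in shSrsf10 and 7.90 CPM in shCtrl, from 497 and 973 UMIs, a log2 ratio of -0.82 (-0.98 to -0.66). Crebbp (chr16:4081328-4213997, minus strand) was at 12.4 CPM in shSrsf10 and 19.3 CPM in shCtrl, from 1379 and 2376 UMIs, a log2 ratio of -0.64 (-0.73 to -0.54). The intervals of the levels did not overlap between the libraries for either gene. How many other genes had such intervals is not given here. These were the 2 of 10 members that were at least 1.5-fold lower in shSrsf10, where 12.6% of the 14715 genes measured in the gate were, and none was at least 1.5-fold higher, where 9.21% of genes were. A gene counted as measured when the libraries together gave at least 20 UMIs in the gate. The median log2 ratio was -0.26 over the 10 members and -0.06 over all genes measured. Kat2a, Hdac1, Hdac3 and Sirt3 lay above the median of all genes and the other 6 members below it. Of all genes measured, 6.02% had a lower ratio than Ep300 and 10.5% a lower one than Crebbp. Among the 2372 genes with a level within 1.5-fold of Ep300's, 4.43% had a lower ratio. Cell-type markers also differed within the gate. The 12 tumour epithelial markers summed to 11084 CPM in shSrsf10 and 17369 CPM in shCtrl. The 12 T-cell markers summed to 12.2 CPM in shSrsf10 and 3.44 CPM in shCtrl, the 4 plasma cell markers to 9.01 and 2.87 CPM, and the fibroblast markers, with 5 of 6 detected and Lum at 0 in each, to 70.7 and 9.38 CPM. Their part in the members' ratios was not tested.

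The other writers differed less. Kat2b (PCAF, a subunit of the ADA and SAGA-type coactivator complexes, chr17:53566861-53672720, plus strand) was at 9.61 CPM in shSrsf10 and 13.3 CPM in shCtrl, for a log2 ratio of -0.46 (-0.58 to -0.35). Kat7 (HBO1, which acetylates histone tails at replication origins and genes, chr11:95274259-95310246, minus strand) was at 9.13 CPM in shSrsf10 and 11.96 CPM in shCtrl, for a log2 ratio of -0.39 (-0.51 to -0.27). Both were lower in shSrsf10 beyond counting error and under 1.5-fold. Kat5 (Tip60, the catalytic subunit of the NuA4 complex, chr19:5603014-5610237, minus strand) was at 10.2 CPM in shSrsf10 and 11.2 CPM in shCtrl, for a log2 ratio of -0.14 (-0.25 to -0.02). Kat5 overlaps Rnaseh2c on the other strand and shares 417 identical transcript bases with it, so its counts are uncertain. Kat2a (GCN5, the paralogue of PCAF, chr11:100704746-100712465, minus strand) was at 16.2 CPM in shSrsf10 and 16.5 CPM in shCtrl, and its log2 ratio of -0.03 (-0.12 to 0.07) was within counting error of no difference.

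The RefSeq promoters of the pair that was lower and of Kat2a, a writer at near-equal levels, are printed because the pair had the lowest ratios of the 10. Each runs 5′ to 3′ from 250 bases before to 50 bases after the RefSeq start on build GRCm38.p6, and capitals mark the GC box GGGCGG on either strand, the sequence bound by Sp1.
Ep300, chr15:81585964-81586263, plus strand: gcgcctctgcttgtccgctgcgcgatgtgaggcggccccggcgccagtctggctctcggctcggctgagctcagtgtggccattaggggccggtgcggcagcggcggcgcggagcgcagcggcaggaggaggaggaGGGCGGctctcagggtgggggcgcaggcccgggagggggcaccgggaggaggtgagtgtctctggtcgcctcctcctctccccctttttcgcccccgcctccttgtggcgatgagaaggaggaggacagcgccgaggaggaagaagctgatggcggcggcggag
Crebbp, chr16:4213355-4213654, minus strand: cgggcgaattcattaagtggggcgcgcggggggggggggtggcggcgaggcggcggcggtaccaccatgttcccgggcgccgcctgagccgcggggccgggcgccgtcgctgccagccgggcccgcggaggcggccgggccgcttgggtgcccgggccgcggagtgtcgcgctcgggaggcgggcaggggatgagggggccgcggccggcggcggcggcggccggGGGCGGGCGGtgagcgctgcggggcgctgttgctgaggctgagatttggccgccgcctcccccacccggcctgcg
Kat2a, chr11:100712418-100712717, minus strand: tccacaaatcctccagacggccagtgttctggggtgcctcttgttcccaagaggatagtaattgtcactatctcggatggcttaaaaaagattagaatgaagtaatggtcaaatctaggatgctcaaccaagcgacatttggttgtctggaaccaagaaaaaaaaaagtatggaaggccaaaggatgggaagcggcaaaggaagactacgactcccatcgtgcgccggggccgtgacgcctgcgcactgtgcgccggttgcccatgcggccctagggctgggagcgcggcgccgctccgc
The Ep300 window held 1 GC box, the Crebbp window 2 that overlap each other, and the Kat2a window none, and 35.7% of the 32851 promoters of the same length hold the motif. The windows of the pair were also richer in CpG, with 30 in Ep300, 49 in Crebbp and 19 in Kat2a, and in G and C, at 72.3%, 82% and 54.3% of bases. None of the 3 held CCAAT, found on either strand in 37.4% of promoters. The MYB motif AACNG, found in 80.3%, occurred once each in the Crebbp and Kat2a windows and not in the Ep300 window. Of the 10 members, 8 had a promoter in the table, and Hdac1 and Hdac3 did not. The windows of other members differed too: 1 of the 2 Sirt3 windows held 4 GC boxes and 1 of the 2 Kat5 windows 3, while both windows of Kat2b, at a log2 ratio of -0.46, held none, with 11 and 6 CpG. That Kat5 window held 29 CpG, and the Hdac2 window 36 CpG and 1 GC box, each at 69.7% G and C. The Ep300 and Crebbp windows lie inside the gene bounds given above, which come from another annotation. A motif match describes these letters only.

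**Figure D1:**
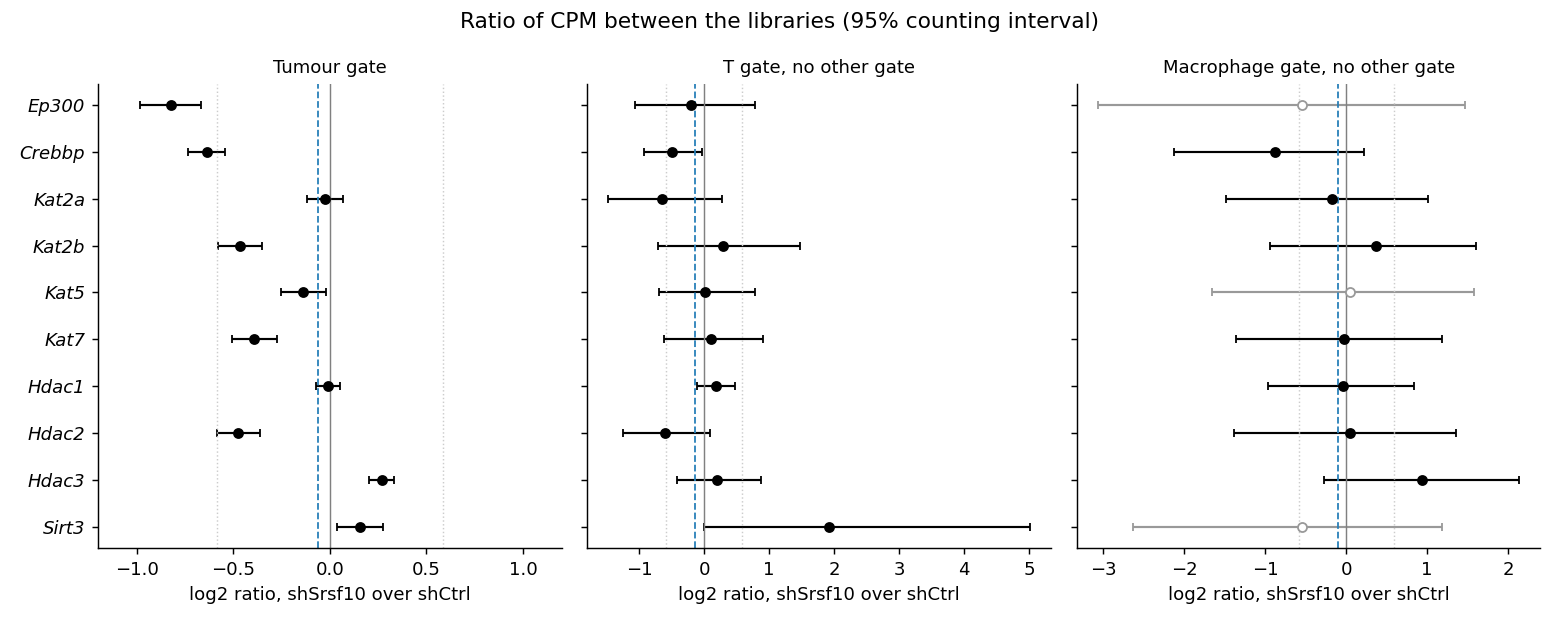
Log2 ratio of CPM, shSrsf10 over shCtrl, for the 10 genes in the tumour gate and in the T and macrophage barcodes that pass no other gate. Points are ratios, bars are 95% counting intervals, open points rest on under 20 UMIs, the dashed line is the median of all genes measured and the dotted lines mark 1.5-fold. In the tumour panel Ep300 (-0.82) and Crebbp (-0.64) lie left of the dotted line and Hdac3 (0.27) is the member farthest to the right.

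Among the erasers, Hdac2 and Hdac3 differed in opposite directions in the tumour gate. Hdac2 (chr10:36974544-37001889, plus strand), a class I deacetylase that pairs with Hdac1 in the NuRD, Sin3 and CoREST complexes, was at 10.1 CPM in shSrsf10 and 14.01 CPM in shCtrl, for a log2 ratio of -0.47 (-0.58 to -0.36). Its partner Hdac1 (chr4:129516104-129542713, minus strand) was at 36.2 CPM in shSrsf10 and 36.5 CPM in shCtrl, for a log2 ratio of -0.01 (-0.07 to 0.05), within counting error of no difference. An annotated transcript of Gm10093 is 94.14% identical to Hdac1 over 1434 aligned bases and is not among the files' features, so how its reads were counted is uncertain. Hdac3, on chromosome 18, the catalytic subunit of the NCoR and SMRT corepressors, was at 34.9 CPM in shSrsf10 and 29.0 CPM in shCtrl, for a log2 ratio of 0.27 (0.20 to 0.33). Sirt3 (chr7:140863666-140882309, minus strand) was at 10.3 CPM in shSrsf10 and 9.21 CPM in shCtrl, for a log2 ratio of 0.16 (0.04 to 0.28). Neither Sirt3 nor Hdac3 reached 1.5-fold, and the direction of Sirt3 turned after thinning to equal depth, at -0.22. Sirt3 overlaps Ric8a and Psmd13 on the other strand, and whether the counting used strand is not given in the sources used here.

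**Figure D2:**
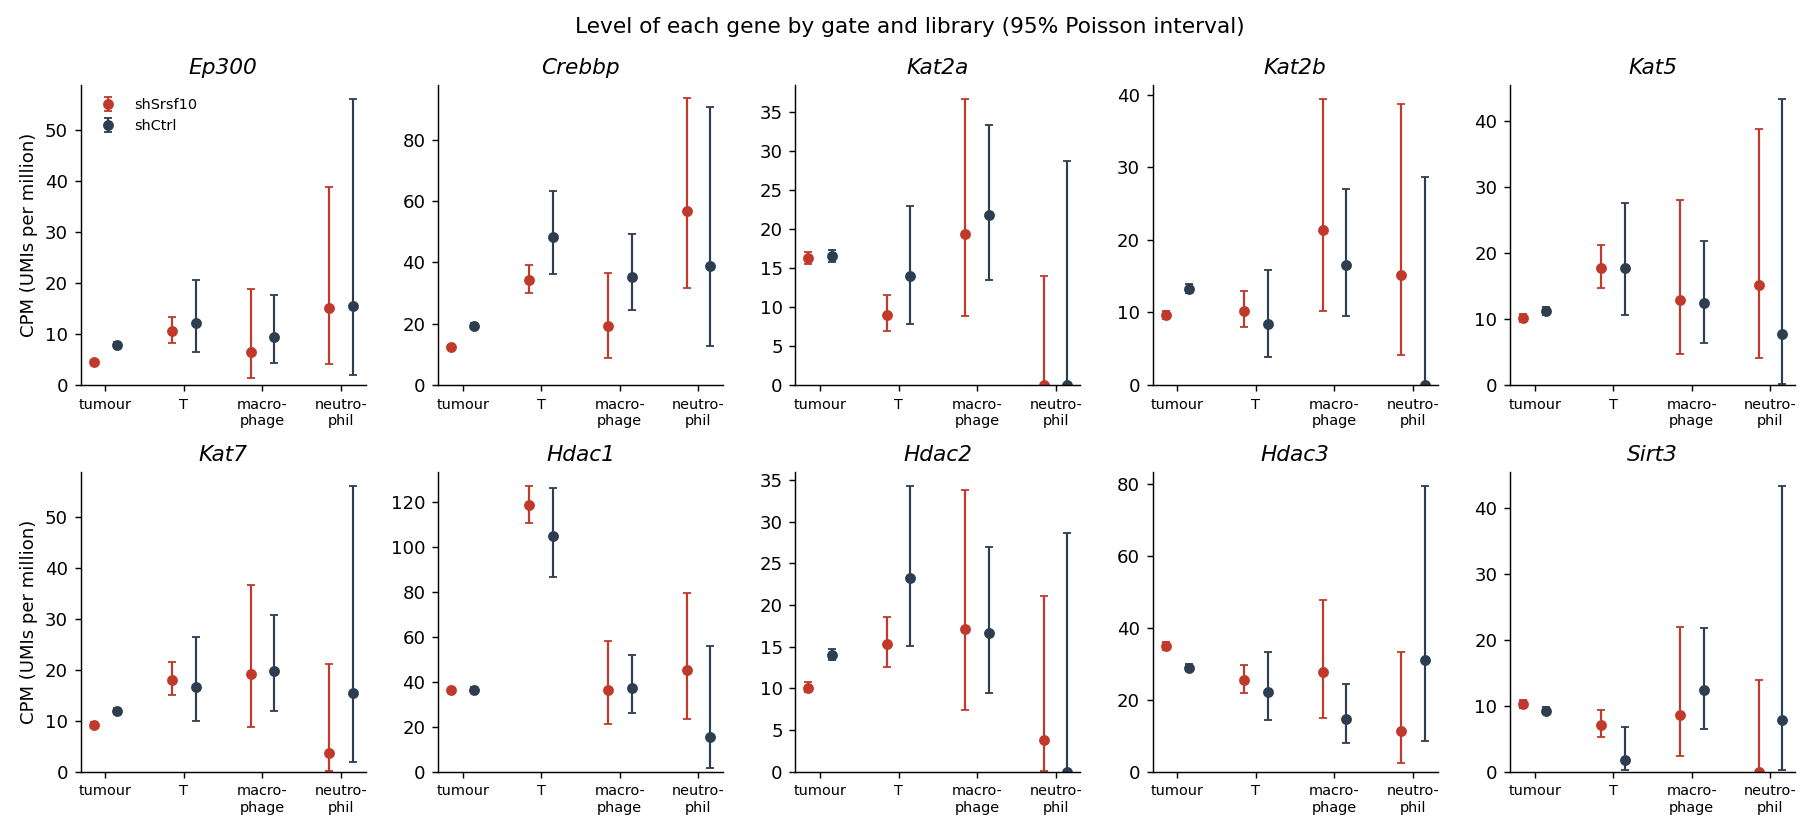
Level of each gene in CPM by gate, with shSrsf10 in red left of shCtrl in dark blue and 95% Poisson intervals. T, macrophage and neutrophil barcodes are those that pass no other gate. The intervals are narrowest in the tumour gate, and Hdac1 stands at 119 CPM in shSrsf10 and 105 CPM in shCtrl T barcodes, against 36.2 and 36.5 CPM in the tumour gate.

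The share of tumour-gate barcodes with at least 1 UMI was compared after each barcode was thinned to 1000 UMIs, since shSrsf10 barcodes were deeper. Thinning left 3714 barcodes in shSrsf10 and 6293 in shCtrl, and 23 and 31 shallower ones were left out. An Ep300 UMI was then present in 0.377% (0.206 to 0.632) of the barcodes of shSrsf10 and in 1.03% (0.798 to 1.31) of those of shCtrl, whereas the unthinned shares were 12.2% and 13.5%. Crebbp had 1.32% (0.978 to 1.74) in shSrsf10 against 2.49% (2.12 to 2.91) in shCtrl, with unthinned shares of 28.6% and 28.8%. The order of the thinned shares was that of the CPM for both genes. Hdac3 had a thinned share of 3.47% (2.91 to 4.11) in shSrsf10 against 2.67% (2.29 to 3.10) in shCtrl, with unthinned shares of 54.7% and 38.7%. These enzymes are used by nearly every cell type, so no gate served as a background that should lack them. Sirt3 had the opposite order to its CPM, at 0.835% (0.568 to 1.18) in shSrsf10 against 0.953% (0.728 to 1.23) in shCtrl, and so had Kat5, at 1.02% (0.725 to 1.40) against 0.969% (0.742 to 1.24). Hdac2 and Kat7, lower by CPM, had thinned log2 ratios of -0.106 and -0.108, while Kat2b had -0.69 and was then past 1.5-fold. The thinned intervals of Sirt3, Kat5, Hdac2, Kat7, Hdac3, Kat2b, Kat2a and Hdac1 overlapped between the libraries. A thinned Ep300 share rests on 14 shSrsf10 and 65 shCtrl barcodes.

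The levels of several members varied with the depth of the barcode within the tumour gate. For barcodes of 500 to 5000, 5000 to 15000, 15000 to 30000 and over 30000 UMIs, Crebbp was at 51.2, 16.95, 12.9 and 11.5 CPM in shSrsf10 and at 62.0, 23.3, 19.0 and 16.1 CPM in shCtrl. Crebbp was therefore lower in deeper barcodes of both libraries, and shSrsf10 had more of its barcodes at the deep end, 1543 of them over 30000 UMIs against 1029 in shCtrl. Within the 4 ranges the log2 ratio of Crebbp was -0.28 (-1.01 to 0.40), -0.46 (-0.76 to -0.17), -0.56 (-0.73 to -0.40) and -0.48 (-0.63 to -0.33). That of Ep300 was 0.84 (-0.38 to 1.98), -0.45 (-0.92 to 0.002), -0.76 (-1.04 to -0.49) and -0.72 (-0.96 to -0.47). The Ep300 value of the shallowest range rests on 11 shSrsf10 and 19 shCtrl UMIs. Crebbp was under 1.5-fold lower in each range, and Ep300 was past 1.5-fold in the 2 deepest. Depth was not equal within a range: the median barcode held 2523.5 UMIs in shSrsf10 and 3306 in shCtrl in the shallowest, and 42492 and 37905 in the deepest. With every barcode thinned to 1000 UMIs the log2 ratio of Crebbp was -0.93 and that of Ep300 -1.45. Hdac2 had log2 ratios of 0.13, 0.01, -0.36 and -0.56 from shallow to deep, so its difference was seen in the deeper barcodes. Kat2b had 0.20, -0.13, -0.46 and -0.23. Hdac3 was at 24.5, 27.7, 32.1 and 36.8 CPM in shSrsf10 and at 28.9, 24.1, 28.7 and 31.9 CPM in shCtrl.

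**Figure D3:**
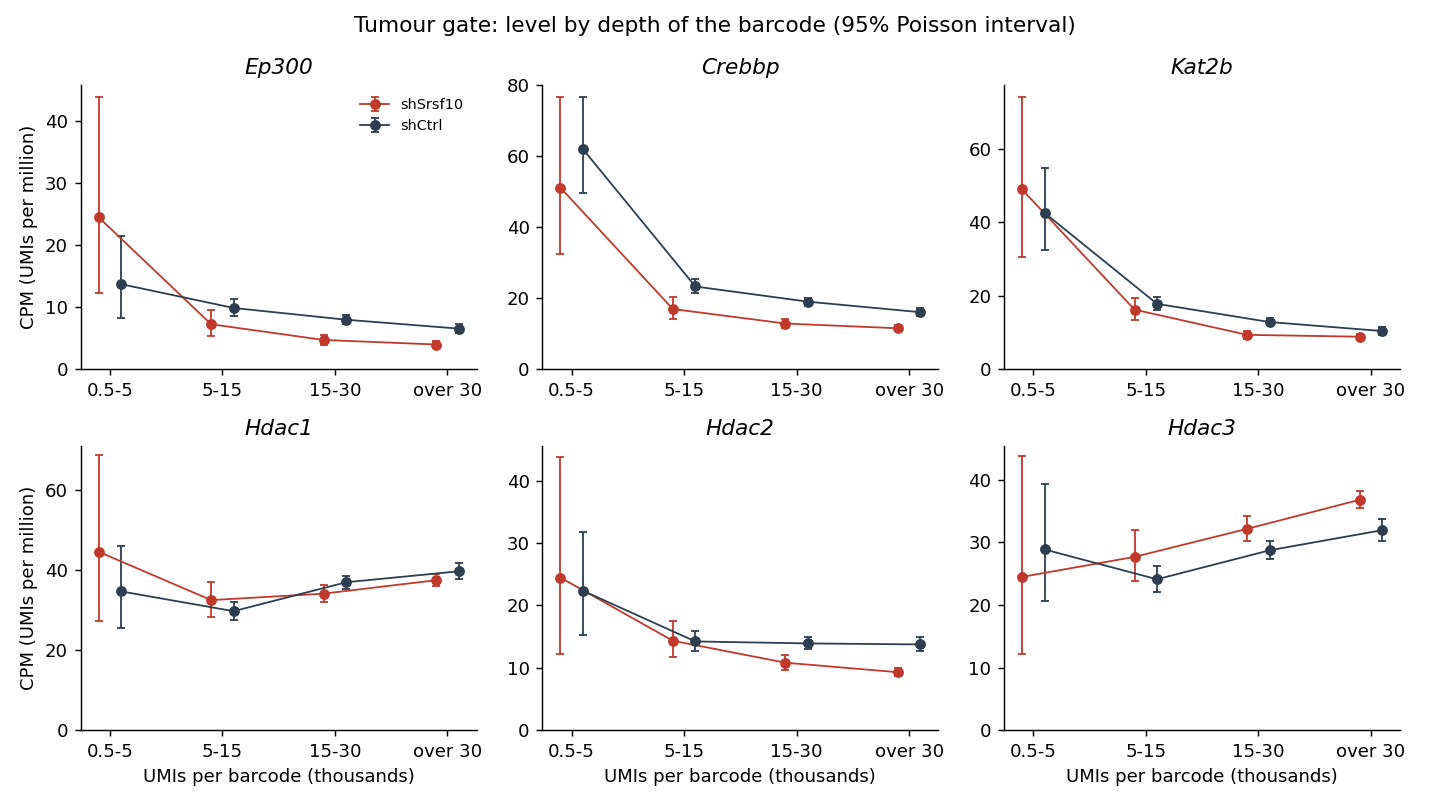
Level in CPM of 6 of the genes in tumour-gate barcodes of rising depth, given on the axis in units of 1000 UMIs per barcode, with 95% Poisson intervals, shSrsf10 in red left of shCtrl in dark blue. Ep300, Crebbp and Kat2b fall with depth in both libraries, and in the deepest range Crebbp stands at 11.5 CPM in shSrsf10 and 16.1 CPM in shCtrl.

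Ep300 and Crebbp are also the members with the longest annotated transcripts, 9566 and 10820 bases, where the others range from 2038 to 4653 bases. Across tumour-gate genes the log2 ratio was lower for longer transcripts: its median was 0.07 under 1000 bases, 0.12 from 1000 to 2000, -0.02 from 2000 to 4000, -0.23 from 4000 to 6000, -0.34 from 6000 to 8000 and -0.37 at 8000 or more. Of the 734 genes at 8000 bases or more, 25.2% were at least 1.5-fold lower in shSrsf10, against 12.6% of all genes measured. The ratios of Ep300 and Crebbp were below the median of that longest range, and Hdac2, Kat7 and Kat2b, at 3250, 3560 and 4653 bases, lay with their whole intervals below the median of their own ranges. For genes of 8000 bases or more the median was -0.11, -0.24, -0.33 and -0.28 in the 4 depth ranges, and it was -0.52 in T and -0.47 in macrophage barcodes that pass no other gate. The nuclear RNA Malat1 was at 145 CPM in shSrsf10 and 201 CPM in shCtrl tumour-gate barcodes, and mitochondrial genes took 0.207% of UMIs in shSrsf10 and 0.412% in shCtrl. The part of transcript length and of these differences between the libraries in the Ep300 and Crebbp ratios was not tested.

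**Figure D4:**
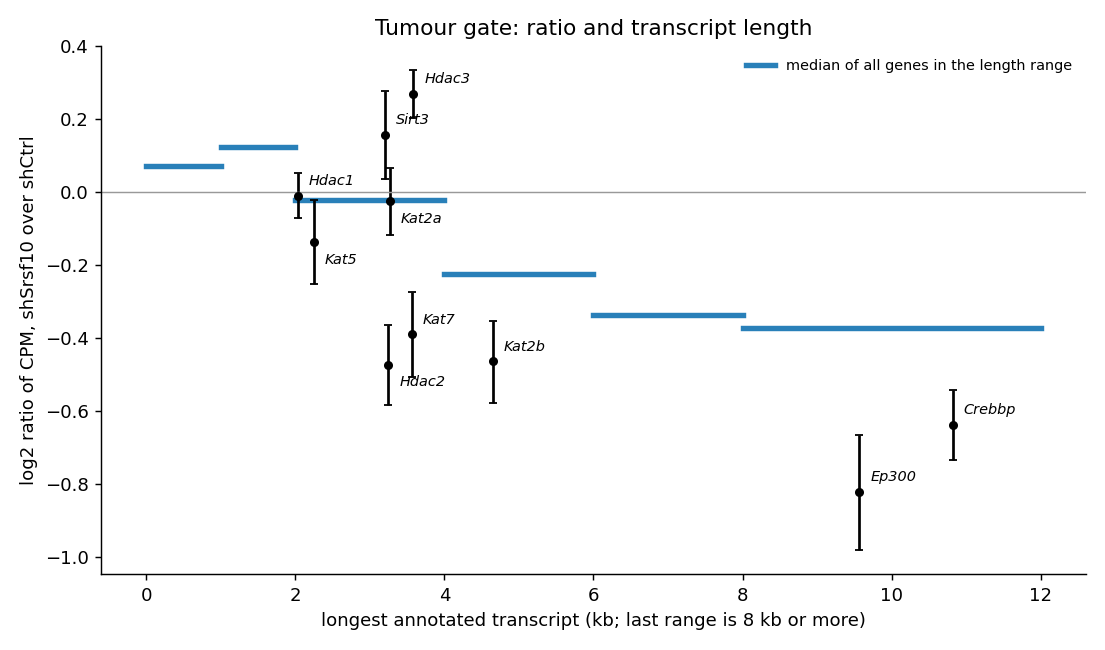
Log2 ratio of CPM, shSrsf10 over shCtrl, in the tumour gate against the longest annotated transcript in kilobases. Points are the 10 genes with 95% counting intervals, and horizontal bars are the median of all genes in a length range. Ep300 (-0.82) and Crebbp (-0.64) lie far to the right, below the bar of the longest range (-0.37).

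Cycling tumour-gate barcodes had slightly higher levels of all 10 members in both libraries, as they had of the median gene. Barcodes counted as cycling when Mki67 and Top2a made up at least 1 in 10000 UMIs, which held for 1092 barcodes in shSrsf10 and 1864 in shCtrl. Kat7 was at 11.3 CPM in cycling and 8.09 CPM in other shSrsf10 barcodes, a log2 ratio of 0.48 (0.30 to 0.67), and at 13.8 and 11.1 CPM in shCtrl, for a log2 ratio of 0.31 (0.16 to 0.47). Hdac1 was at 41.5 CPM in cycling and 33.7 CPM in other shSrsf10 barcodes, and at 41.7 and 34.0 CPM in shCtrl ones. All 10 log2 ratios were positive in each library, between 0.18 and 0.48 in shSrsf10 and between 0.20 and 0.37 in shCtrl, and none reached 1.5-fold, where 9.31% of genes did in shSrsf10 and 10.7% in shCtrl. The intervals of Ep300 and Hdac2 in shSrsf10 included 0. The median over all genes was 0.13 in shSrsf10 and 0.14 in shCtrl, so a positive ratio was common among all genes. The share of all genes with a positive ratio is not given here. The cycling barcodes were deeper, with a median of 30661 UMIs against 24661 in shSrsf10 and 19415.5 against 16544 in shCtrl. Between the libraries Ep300 had a log2 ratio of -0.84 (-1.10 to -0.57) in cycling and -0.81 (-1.01 to -0.61) in other barcodes, and Crebbp had -0.67 (-0.83 to -0.51) and -0.62 (-0.74 to -0.50).

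Tumour-gate barcodes high in MHC class II transcripts were more numerous in shSrsf10, 1954 barcodes against 457 in shCtrl, when H2-Aa, H2-Ab1, H2-Eb1 and Cd74 together made up at least 5 in 10000 UMIs. Within shSrsf10, Kat2a was at 18.02 CPM in barcodes high and 14.3 CPM in barcodes low in these genes, a log2 ratio of 0.33 (0.19 to 0.47). Kat7 had 0.32 (0.14 to 0.50) and Hdac2 0.30 (0.13 to 0.47) in the same contrast, beside a median of 0.11 over all genes. Ep300 had -0.10 (-0.36 to 0.16) and Crebbp -0.06 (-0.21 to 0.10). In shCtrl, Kat7 had -0.08 (-0.40 to 0.22), Kat2a 0.24 (-0.001 to 0.47) and Hdac2 0.20 (-0.06 to 0.46). Between the libraries the log2 ratio of Ep300 was -0.98 (-1.36 to -0.58) in barcodes high and -0.76 (-0.97 to -0.56) in barcodes low in MHC class II, and that of Crebbp was -0.78 (-1.02 to -0.54) and -0.60 (-0.72 to -0.47). Kat7 had -0.17 (-0.48 to 0.16) in the high and -0.57 (-0.73 to -0.41) in the low barcodes.

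T cells stood apart from tumour cells in Hdac1, which together with Hdac2 is required for normal T-cell development in mice. Some T-gate barcodes also passed the tumour gate, 37 in shSrsf10 and 5 in shCtrl, so values are given here for the T barcodes that pass no other gate, 1853 and 327 with 6930844 and 1077011 UMIs. Hdac1 was at 119 CPM in shSrsf10 and 105 CPM in shCtrl T barcodes, from 823 and 113 UMIs. Within shSrsf10 it was 3.28-fold the tumour gate's level, a log2 ratio of 1.71 (1.60 to 1.82), and within shCtrl 2.88-fold, a log2 ratio of 1.52 (1.24 to 1.79). In both libraries T barcodes had the highest Hdac1 level of the 4 gates, and its difference from the next gate exceeded counting error. The ratio between the libraries, 0.18 (-0.11 to 0.48), was within counting error of no difference. After thinning, the T-gate share with an Hdac1 UMI was 9.61% (8.30 to 11.1) in shSrsf10 and 8.28% (5.43 to 11.98) in shCtrl, against 3.37% and 3.21% of tumour-gate barcodes.

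Crebbp was also higher in T than in tumour barcodes, by a log2 ratio of 1.47 (1.27 to 1.67) within shSrsf10 and 1.32 (0.90 to 1.72) within shCtrl, while its level between the libraries was lower in shSrsf10. It was at 34.3 CPM in shSrsf10 and 48.3 CPM in shCtrl T barcodes, from 238 and 52 UMIs, a log2 ratio of -0.49 (-0.93 to -0.03). Of genes of 8000 bases or more, 46.4% were at least 1.5-fold lower in these barcodes, with a median of -0.52. T barcodes were shallower than tumour-gate ones, with medians of 2448 UMIs in shSrsf10 and 1918 in shCtrl. In tumour-gate barcodes of 500 to 5000 UMIs Crebbp was at 51.2 CPM in shSrsf10 and 62.0 CPM in shCtrl, above its T levels. The parts of length and depth were not tested. Ep300 was at 10.5 CPM in shSrsf10 and 12.1 CPM in shCtrl T barcodes, from 73 and 13 UMIs, and its log2 ratio of -0.20 (-1.06 to 0.78) did not separate the libraries. Kat2a ran the other way between gates in shSrsf10, at 8.95 CPM in T and 16.2 CPM in tumour barcodes, a log2 ratio of -0.86 (-1.25 to -0.49). In shCtrl the same contrast was -0.25 (-1.09 to 0.48) and did not exceed counting error.

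Between the libraries, Sirt3 was the T-gate member with the largest ratio, from few UMIs. By the gate alone it had 60 UMIs in shSrsf10 and 3 in shCtrl, 6.92 and 2.32 CPM, a log2 ratio of 1.58 (-0.04 to 3.90). Without barcodes that pass another gate it had 49 and 2 UMIs, 7.07 and 1.86 CPM, a log2 ratio of 1.93 (-0.001 to 5.01). Hdac2 was at 13.7 CPM in shSrsf10 and 22.4 CPM in shCtrl by the gate alone, from 119 and 29 UMIs, a log2 ratio of -0.71 (-1.30 to -0.07). Sirt3 and Hdac2 were thus the 1 member at least 1.5-fold higher and the 1 at least 1.5-fold lower of 10 measured in the T gate, where 12.6% of 10625 genes were higher and 23% lower. Without barcodes of another gate 1 member was higher and 2 were lower, Hdac2 at -0.60 (-1.24 to 0.09) and Kat2a at -0.64 (-1.47 to 0.28), where 12.9% and 26% of genes were. The intervals of all 3 included 0. The median over the members was 0.06, beside -0.14 over all genes measured in these barcodes.

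The mix of T cells differed between the libraries, so Crebbp and Hdac1 are also given by subset. Among T barcodes that pass no other gate, 1039 in shSrsf10 and 103 in shCtrl carried Cd8a or Cd8b1 without Cd4, and 334 and 101 carried Cd4 without Cd8a and Cd8b1. In the Cd4 barcodes Crebbp was at 32.0 CPM in shSrsf10 and 59.8 CPM in shCtrl, from 57 and 24 UMIs, a log2 ratio of -0.90 (-1.61 to -0.15). In the Cd8 barcodes it was at 34.5 and 38.9 CPM, from 134 and 15 UMIs, a log2 ratio of -0.17 (-0.94 to 0.71). Hdac1 was at 163 CPM in shSrsf10 and 110 CPM in shCtrl Cd4 barcodes, a log2 ratio of 0.57 (0.11 to 1.06), and at 98.9 and 119 CPM in Cd8 barcodes, a log2 ratio of -0.27 (-0.71 to 0.20). The difference between the subsets was not tested. The tumour epithelial markers summed to 916 CPM in shSrsf10 and 2282 CPM in shCtrl T barcodes that pass no other gate, with 11 of 12 detected and Cdh1 at 0 in each. The monocyte markers summed to 2431 CPM in shSrsf10, with 6 of 6 detected, and to 464 CPM in shCtrl, with 5 of 6 detected and Chil3 at 0. In macrophage barcodes that pass no other gate the same markers summed to 1519 CPM in shSrsf10 and 490 CPM in shCtrl. They include Ly6c2 and Plac8, and values per gene are not given here. The sums therefore cannot tell admixed monocytes from T cells with these transcripts. The part of these markers in the ratios was not tested.

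Macrophage barcodes gave fewer UMIs of each member, and those that also passed the tumour gate weighed on the sums: 16 barcodes in shSrsf10 and 26 in shCtrl held 48.4% and 40.0% of the gate's UMIs. By the gate alone, 9 members were measured, of which Hdac3 was at least 1.5-fold higher and Kat5 at least 1.5-fold lower, where 11.4% of 8378 genes were higher and 18.1% lower. Hdac3 was at 34.7 CPM in shSrsf10 and 22.9 CPM in shCtrl, from 44 and 39 UMIs, a log2 ratio of 0.60 (-0.06 to 1.26). Kat5 was at 6.30 CPM in shSrsf10 and 11.2 CPM in shCtrl, from 8 and 19 UMIs, a log2 ratio of -0.82 (-2.22 to 0.43). Neither interval excluded equal levels.

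In the 124 shSrsf10 and 380 shCtrl macrophage barcodes that pass no other gate, 7 members were measured, with Hdac3 higher and Crebbp lower past 1.5-fold, where 9.21% of 5855 genes were higher and 24.7% lower. Hdac3 was at 27.9 CPM in shSrsf10 and 14.5 CPM in shCtrl, from 13 and 14 UMIs, a log2 ratio of 0.94 (-0.27 to 2.14). Crebbp was at 19.3 CPM in shSrsf10 and 35.3 CPM in shCtrl, from 9 and 34 UMIs, a log2 ratio of -0.87 (-2.12 to 0.22). Kat5 was at 12.9 CPM in shSrsf10 and 12.5 CPM in shCtrl there, from 6 and 12 UMIs, so its difference by the gate alone was not seen in these barcodes. The other measured members, Kat2a, Kat2b, Kat7, Hdac1 and Hdac2, had log2 ratios between -0.18 and 0.37. Within shCtrl, Hdac3 was lower in macrophage than in tumour barcodes, by a log2 ratio of -0.995 (-1.87 to -0.25), whereas within shSrsf10 the value was -0.32 (-1.24 to 0.45). Tumour epithelial markers, which include the macrophage-expressed Apoe, summed to 7448 CPM in shSrsf10 and 12588 CPM in shCtrl in these barcodes, with 10 and 11 of 12 detected. Cldn3 and Cdh1 were at 0 in shSrsf10 and Cdh1 in shCtrl. The fibroblast markers summed to 227 CPM in shSrsf10, with 5 of 6 detected and Pdgfrb at 0, and to 7.26 CPM in shCtrl, with 3 of 6 detected and Col1a2, Lum and Pdgfrb at 0. The part of these markers in the ratios was not tested.

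Neutrophil barcodes, with a median of 798.5 UMIs in shSrsf10 and 685 in shCtrl, were too shallow for all members but Crebbp. Crebbp was at 57.9 CPM in shSrsf10 and 36.2 CPM in shCtrl, from 16 and 5 UMIs, a log2 ratio of 0.68 (-0.84 to 2.48), where 30.7% of the 2161 genes measured in the gate were at least 1.5-fold higher and 18.8% at least 1.5-fold lower. Without barcodes of another gate, 15 and 5 UMIs gave 0.55 (-0.99 to 2.36), under 1.5-fold. The other members had between 0 and 13 UMIs per library. Kat2a had 0 in both, with upper interval limits of 13.3 CPM in shSrsf10 and 26.7 CPM in shCtrl, where 3 counts would be 10.9 and 21.7 CPM.

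The order of the gates by level could be told for few members. Besides Hdac1, only 4 steps between neighbouring gates exceeded counting error: Crebbp was higher in macrophage than in tumour barcodes of shCtrl, at 35.3 and 19.3 CPM, Kat2a was higher in tumour than in T barcodes of shSrsf10, and Kat7 and Hdac2 were higher in T than in tumour barcodes of shSrsf10. Kat7 was at 18.04 CPM in T and 9.13 CPM in tumour barcodes there, and Hdac2 at 15.3 and 10.1 CPM. For Ep300, Kat2b, Kat5, Hdac3 and Sirt3 no 2 neighbouring gates differed beyond counting error in either library, but gates farther apart in the order did. Within shSrsf10 the log2 ratio of T over tumour barcodes was 1.24 (0.86 to 1.59) for Ep300, 0.80 (0.52 to 1.07) for Kat5, -0.45 (-0.68 to -0.23) for Hdac3 and -0.54 (-0.98 to -0.13) for Sirt3. In shCtrl the same values were 0.61 (-0.30 to 1.39), 0.66 (-0.08 to 1.31), -0.38 (-1.02 to 0.20) and, from 2 UMIs in T barcodes, -2.31 (-5.36 to -0.45). Kat2b was higher in macrophage than in tumour barcodes of shSrsf10, by 1.16 (0.09 to 2.04) from 10 UMIs. Immune barcodes were shallower, and depth was not matched here. In shSrsf10 tumour-gate barcodes of 500 to 5000 UMIs, Kat7 was at 20.03, Hdac2 at 24.5, Ep300 at 24.5 and Kat2b at 48.96 CPM. These were above the T or, for Kat2b, macrophage levels, and rest on 9 to 22 UMIs. Hdac1, at 44.5 CPM, and Kat5, at 6.68 CPM from 3 UMIs, were below their T levels. In shCtrl barcodes of this depth Crebbp was at 62.0 CPM, above its macrophage level. The part of depth was not tested.

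Other enzymes and partners of the same system were given from lists chosen by function. Of 10 other histone acetyltransferases measured in the tumour gate, 2 were at least 1.5-fold lower and none higher, with a median log2 ratio of -0.47. Over all genes measured in the gate 12.6% were lower and 9.21% higher, with a median of -0.06, and the counts of this and the following lists stand beside those shares. They were Kat6b (-0.69, -0.85 to -0.53), the MORF acetyltransferase, and Taf1 (-0.63, -0.75 to -0.51), the largest subunit of TFIID. The nuclear receptor coactivators Ncoa1 (-0.58) and Ncoa3 (-0.56) were also lower and just short of 1.5-fold. Of 8 other classical deacetylases, 1 was lower, Hdac5 (-0.91, -1.05 to -0.78), at 6.33 CPM in shSrsf10 and 11.9 CPM in shCtrl, and the list's median was -0.25. Hdac4, also of class IIa, had -0.52 (-0.65 to -0.39), and Hdac10, a polyamine deacetylase, had 0.38 (0.18 to 0.58). Of the 6 other sirtuins, Sirt1 alone was lower past 1.5-fold (-0.76, -0.98 to -0.54), at 2.39 CPM in shSrsf10 and 4.05 CPM in shCtrl. Sirt6 (0.26, 0.13 to 0.40) and Sirt5 (0.22, 0.08 to 0.36) were slightly higher, and the median was -0.03.

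Among 24 subunits of writer complexes in the tumour gate, 4 were lower and none higher, where 12.6% of all genes were lower and 9.21% higher, and the median was -0.12 beside -0.06 over all genes. They were Brpf3 (-1.02, -1.26 to -0.79), a scaffold of HBO1, Cited2 (-0.93, -1.001 to -0.86), which binds p300 and CBP, Jade3 (-0.66) and Epc2 (-0.66). Cited2 was at 20.2 CPM in shSrsf10 and 38.5 CPM in shCtrl. Among 24 subunits of eraser complexes 5 were lower and none higher beside the same shares of all genes, with a median of -0.35. Chd3, a remodeller of the NuRD complex, had the lowest ratio, at 28.1 CPM in shSrsf10 and 59.1 CPM in shCtrl (-1.07, -1.13 to -1.01), followed by the CoREST scaffold Rcor1 (-0.71), the NuRD subunit Gatad2b (-0.63) and the Sin3 subunit Sap30 (-0.59). Of 16 readers of acylated lysine, 1 was lower, Trim24 (-0.68, -0.75 to -0.61), and the median was -0.29.

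The enzymes that supply acyl donors lay near the middle of all genes. Of 17 measured of 20, 1 was higher and 1 lower past 1.5-fold, with a median of 0.07 beside -0.06 over all genes. The lower one was Cdyl (-0.998, -1.21 to -0.79), a chromodomain protein that hydrates crotonyl-CoA, and the higher was its paralogue Cdyl2, with 68 UMIs in shSrsf10 and 14 in shCtrl (2.43, 1.58 to 3.37), named here after its value was seen. Ldha, which makes lactate, was at 1473 CPM in shSrsf10 and 1245 CPM in shCtrl (0.24, 0.23 to 0.25). Acly, which makes acetyl-CoA from citrate, was at 17.1 and 20.1 CPM (-0.24, -0.32 to -0.15).

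**Figure D5:**
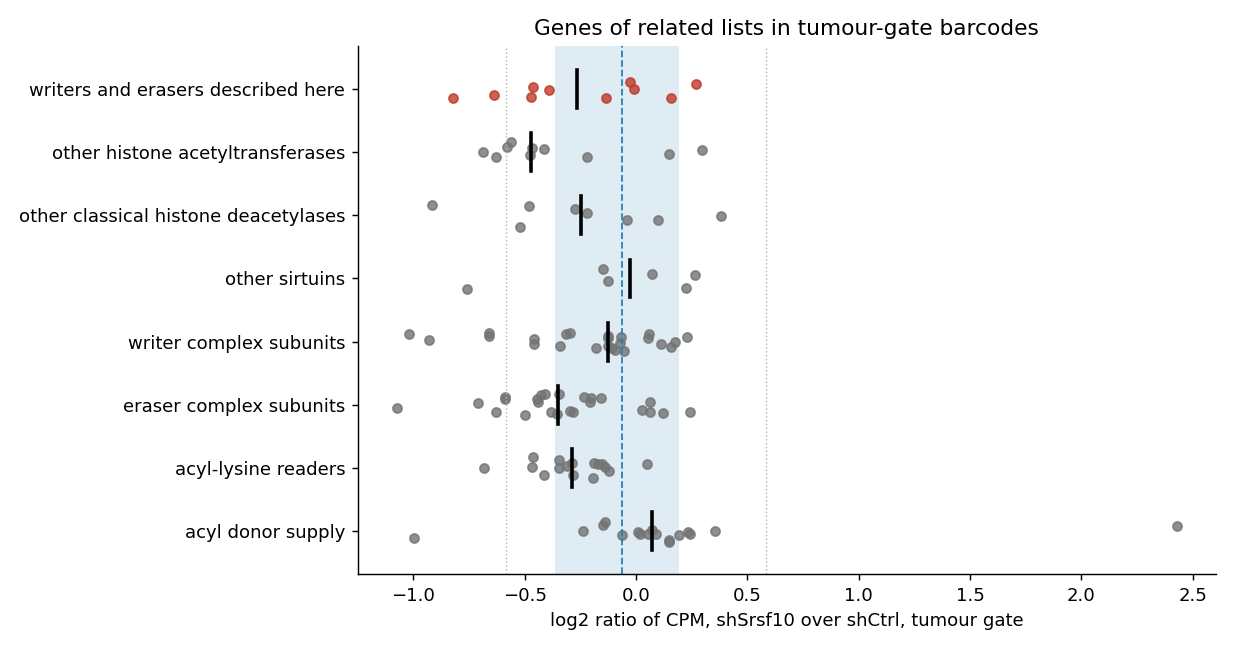
Log2 ratio of CPM, shSrsf10 over shCtrl, in the tumour gate for the 10 genes (red) and the measured genes of 7 related lists (grey). Black bars are list medians, the dashed line and the band are the median (-0.06) and middle 50% of all genes measured, and dotted lines mark 1.5-fold. The medians of the other acetyltransferases (-0.47) and the eraser subunits (-0.35) lie farthest to the left.

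The genes with the pattern most like a member were found by Pearson's correlation over 8 values of log2(CPM + 1), from 4 gates in 2 libraries, among 697 genes with at least 20 UMIs in each. Crebbp was most like Son (0.98), Srrm2 (0.98) and Nfkb1 (0.95), and Ep300 most like Rbm39 (0.95), Vmp1 (0.91) and Pnrc1 (0.91). Hdac1 was most like Sub1 (0.95), Csnk2b (0.92) and Oaz1 (0.89). Kat2a was most like the respiratory chain gene Ndufb8 (0.99) and the ATP synthase genes Atp5g1 (0.98) and Atp5a1 (0.98). The 8 points share libraries, depths and, in the T and macrophage gates, barcodes of the tumour gate, and the members' neutrophil values rest on 0 to 16 UMIs, so these are descriptions only.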

How the data were processed

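Per the submitters' processing notes, Cell Ranger 6.1.0 and build mm10 were used. The deposited values are raw UMI counts, whole numbers with no normalization. The counting's use of strand and introns is not given in the sources used here. Kept barcodes had 200 genes or more, 500 UMIs or more and a mitochondrial share of 20% or less. The limit of 500 UMIs removed none: it is the lowest total in both files. Mitochondrial UMIs exceeded the limit in 0.847% of shSrsf10 and 3.78% of shCtrl barcodes. The highest Scrublet scores (scanpy 1.11.5, seed 1) were removed at 0.8% per 1000 barcodes, 456 in shSrsf10 and 787 in shCtrl; the automatic threshold marked 206 and 0.

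UMIs were summed per library and gate (Python 3.11.15, numpy 2.4.6, scipy 1.17.1, pandas 2.3.3, matplotlib 3.10.9). A barcode could pass several gates; 1012 shSrsf10 and 1581 shCtrl barcodes passed none. CPM have exact Poisson intervals, ratios exact conditional binomial ones, shares exact Clopper-Pearson ones, all at 95%. At least 1.5-fold with at least 20 UMIs over both libraries counted as higher or lower. The ratio intervals were run on simulated Poisson counts, which hold counting error only and no spread between cells or libraries.

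The genes and lists were chosen with earlier results of these data known. Named were the members, Srsf10, up to 4 genes per list with the largest tumour-gate ratios from at least 100 UMIs (2 per list from at least 20 UMIs in other gates), and the 3 genes most like each member; not all are printed. The length ranges, Malat1 and Cdyl2 were added after values were seen. Positions and transcript lengths came from GENCODE vM21 on GRCm38. Of 11 other settings tried, 1, without the 67 barcode sequences found in both libraries, was chosen after seeing the data.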

Additional observations from a re-analysis of the deposited data

How the results depend on the processing

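Of 310 values of single members in a gate under the alternatives, 297 lay within the main value's counting interval, 12 lay outside it and 1, past 1.5-fold in the main setting, changed sign. Crebbp in the neutrophil gate, 0.68 by summed UMIs, was -0.11 as the mean of CPM per barcode. In all, 21 values had the other sign than their main value, 6 in the tumour gate, 8 in the T gate, 6 in the macrophage gate and 1 in the neutrophil gate. The main interval excluded 0 for 2 of these, tumour-gate Kat5 (0.08) and Sirt3 (-0.22) after thinning. In the tumour gate 1 member in place of 2 was at least 1.5-fold lower after scaling by the median ratio, which moves all tumour-gate values by the median of -0.06; Crebbp was then at -0.58. After thinning 3 were lower, Kat2b being the added one at -0.69. Over all alternatives Ep300 lay between -1.45 and -0.70 and Crebbp between -0.93 and -0.58, with the lowest values after thinning to 1000 UMIs, which also put the members' median at -0.11 in place of -0.26. In the T gate 2 members in place of 1 were higher with stricter gates and after thinning. Lower in the T gate were 2 in place of 1 with the total without mitochondrial, ribosomal protein and haemoglobin genes, with barcodes of exactly 1 gate and with stricter gates, and 3 after thinning. In the macrophage gate 2 members in place of 1 were lower with no minimum count and 3 by the mean of CPM per barcode. No count or median over members was formed for the neutrophil gate, where 1 member was measured. Beyond what each alternative's own construction changes, the cause was not tested. No paired analysis was possible because each group has 1 library, and no replicate could be left out. Depth limits the immune gates: the T gate of shCtrl held 1294303 UMIs and the neutrophil gates 276486 in shSrsf10 and 137997 in shCtrl. The interval excluded equal levels for 2 of 10 members in the T gate, Crebbp and Hdac2, and none of 9 in the macrophage gate. Shares of all genes with such intervals are not given here, nor most shares past 1.5-fold under the alternatives. These counts therefore do not set the members apart from other genes. Leaving out the shared barcode sequences moved none of these counts.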

Other observations

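In T barcodes that pass no other gate, the regulators named here were among the 2 with the largest ratios, in either direction, of their lists. How many of all genes had intervals that exclude 0 is not given here. Chd3, the NuRD remodeller, was at 46.0 CPM in shSrsf10 and 102 CPM in shCtrl, for a log2 ratio of -1.15 (-1.47 to -0.82). Trim28, the corepressor that recruits histone-modifying complexes to zinc finger proteins, was at 39.1 and 97.5 CPM (-1.32, -1.65 to -0.98), and Trim24, a bromodomain reader, at 9.81 and 29.7 CPM (-1.60, -2.22 to -0.94). Of the 16 readers 4 were at least 1.5-fold lower and none higher, and of 23 eraser subunits measured 7 were lower and 1 higher. Over all genes measured 26% were lower and 12.9% higher, so the counts of lower genes lay near the share of all genes. Sirt6, a nuclear sirtuin, was at 12.8 CPM in shSrsf10 and 5.57 CPM in shCtrl (1.205, 0.03 to 2.69), from 89 and 6 UMIs, and Sirt4, a mitochondrial one, at 2.02 and 6.50 CPM (-1.69, -3.09 to -0.14), from 14 and 7 UMIs. Genes with transcripts of 8000 bases or more had a median of -0.52 in these barcodes. The part of transcript length in these values was not tested.

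In macrophage barcodes that pass no other gate, 10 of 21 measured eraser subunits were at least 1.5-fold lower in shSrsf10 and none higher, where 24.7% and 9.21% of genes were. Chd3 was at 27.9 CPM in shSrsf10 and 84.1 CPM in shCtrl (-1.59, -2.56 to -0.74), from 13 and 81 UMIs. The reader Baz2b was at 32.1 and 91.3 CPM (-1.51, -2.40 to -0.71), and the class IIa deacetylase Hdac9 at 23.6 and 46.7 CPM (-0.99, -2.09 to -0.01). Echs1, a mitochondrial enoyl-CoA hydratase, was at 98.6 CPM in shSrsf10 and 49.8 CPM in shCtrl (0.98, 0.37 to 1.60). The relation with transcript length given in the report was also present in these barcodes, and its part in these values was not tested.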
